A study of Saccharomyces cerevisiae with 8 samples.

Results

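The genotype by Calcofluor white interaction asks whether a yeast strain lacking MUB1 changed its transcripts under Calcofluor white differently from a strain labelled wild type. For each gene it is the response of the deletion strain (20 over 0 µg/ml Calcofluor white) minus the response of the wild type, on the log2 scale. All 8 RNA-seq libraries of the series enter it. Of 6534 gene identifiers, 5954 had enough reads to be tested, and 149 of these were called by edgeR's quasi-likelihood test at an adjusted p under 0.05. The 4 groups of Saccharomyces cerevisiae, with 2 libraries each, were a mub1 deletion strain with 20 µg/ml Calcofluor white, the same strain without the dye, the wild type (WT) with 20 µg/ml, and WT without it. Cells in exponential phase were kept for 5 hours in a chemically defined medium, and the labels name BMA41 as the background of both genotypes.

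Mub1 is a partner of the ubiquitin ligase Ubr2, and both are known for marking Rpn4, which drives the proteasome genes, for degradation. Calcofluor white binds chitin in the yeast wall and disturbs its assembly. Cells answer through the cell wall integrity pathway, in which surface sensors act through the GTPase Rho1, the kinase Pkc1 and a kinase cascade on the kinase Slt2, and Slt2 activates the transcription factor Rlm1, which switches on genes of wall building and repair.

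MUB1 itself (YMR100W, chrXIII:466300-468162, plus strand) had 0 and 1 reads in the mub1 libraries with the dye and 1 and 0 without it, against 1042 and 1226 reads in WT with the dye and 1068 and 1066 without it. The libraries also parted at other genes used as selection markers. LEU2 had 4933 to 7122 reads in the mub1 libraries and 0 to 2 in WT, URA3 had 5950 to 6648 against 0 to 1, and MET17 had 2621 to 4538 against 0 to 1, while TRP1 had 0 in the 4 mub1 libraries and 909 to 989 in WT. The genotypes as sampled therefore differ at more loci than MUB1, and whether they differ at further loci was not tested. Effects of MUB1, of these loci and of any other strain difference on the response cannot be told apart here. Levels are given as counts-per-million (CPM) of a library. Libraries held 24147195 to 31677985 counts. The labels do not say whether the 2 libraries of a group came from separate cultures, so the spread between them may be technical. P-values and standard errors rest on 1 spread per gene that the 4 groups share. The WT libraries with the dye differed most from each other, by a median of 0.1635 on the log2 scale over genes, against 0.0816 to 0.0961 in the other 3 groups. The shared spread does not follow this wider gap, so the errors of WT responses and of interactions may be too small.

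The interaction was called for 149 genes (2.5% of those tested), of which 53 (0.89%) were higher and 96 (1.61%) lower, meaning that the mub1 response lay above or below the WT response. The difference was at least 2-fold for 9 of the higher and 41 of the lower genes. Each response on its own was broader: 819 genes (13.8%) rose and 833 (14%) fell in mub1, and 616 (10.3%) rose and 518 (8.7%) fell in WT. Over all tested genes the median interaction was -0.0049, with median responses of 0.0023 in mub1 and -0.0115 in WT. In all 149 called genes the 4 possible differences between a library with the dye and one without did not overlap between mub1 and WT, as was also true of 41.4% of all genes tested. Among the 96 lower genes, 40 were not called in mub1 and rose in WT, 32 fell in mub1 and were not called in WT, 14 fell in mub1 and rose in WT, 9 rose in both and 1 fell in both. Among the 53 higher genes, 33 rose in mub1 and were not called in WT, 10 rose in mub1 and fell in WT, 5 were not called in mub1 and fell in WT, 4 rose in both and 1 fell in both.

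The number of genes called rested on single libraries. It was 30 and 11 without the first and the second mub1 library with the dye, 16 and 49 without each of the mub1 libraries without it, 1779 and 366 without each of the WT libraries with the dye, and 10 and 9 without each of the WT libraries without it. The 2 WT libraries with the dye leaned apart along the interaction: the second exceeded the first in 85 of the 96 lower genes and lay below it in 43 of the 53 higher genes, and it exceeded it in 3354 of all 5954. Leaving out either of them also takes the widest gap out of the spread that the groups share. More genes then pass, so a call that is kept in these settings is little tested by them. Across these 8 and 8 other settings no called gene changed direction, and 8 genes were called in all 16: BIO3, BIO4, BIO5, VHT1, YOR387C, KDX1, EXG1 and CHA1.

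**Figure D1:**
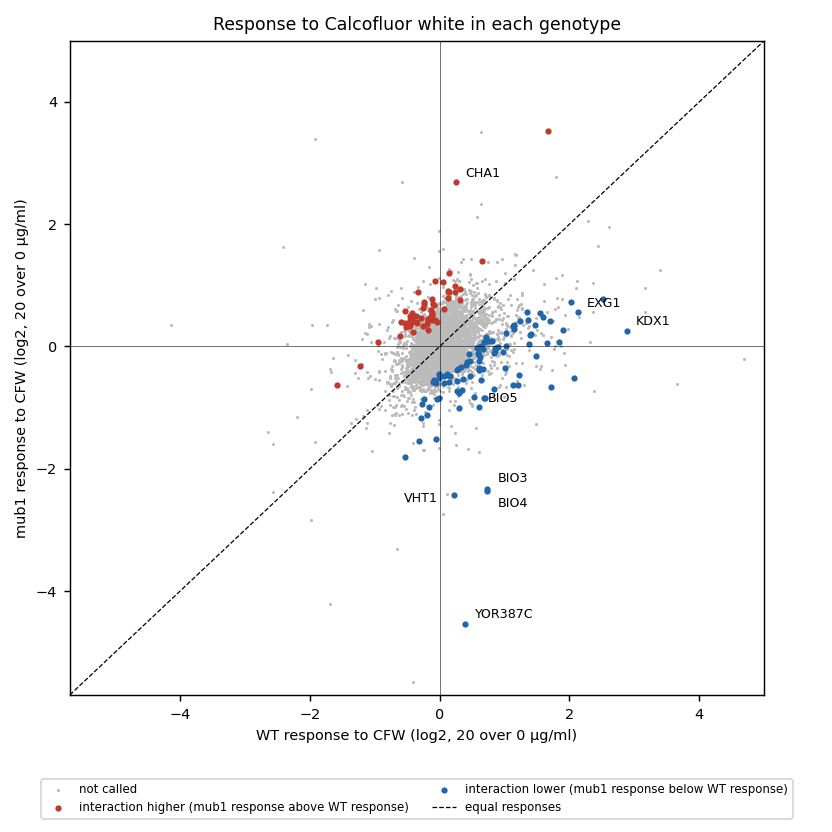
Each point is a gene, with the mub1 response to Calcofluor white on the y axis and the WT response on the x axis (both log2, 20 over 0 µg/ml, from 2 libraries a group); red points are the 53 genes with a higher interaction, blue points the 96 with a lower one, grey points genes that were not called, and the dashed line marks equal responses. The 8 genes called in all 16 alternative settings are named: the biotin genes and YOR387C lie below the line with negative mub1 responses, KDX1 and EXG1 lie below it with large WT responses, and CHA1 lies above it; MUB1 and the marker genes LEU2, URA3, MET17 and TRP1 are not drawn.

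Genes for making and taking up biotin, the cofactor of carboxylases, held 4 of the 8 genes called in every setting. BIO3, BIO4, BIO5, BIO2 and VHT1 fell under Calcofluor white in mub1, while BIO3, BIO4 and BIO5 rose in WT, BIO2 fell less there and VHT1 was not called. BIO3 (YNR058W, chrXIV:734291-735733, plus strand), BIO4 (YNR057C, chrXIV:733356-734069, minus strand) and BIO5 (YNR056C, chrXIV:731618-733303, minus strand) are neighbours on build R64. BIO3 and BIO4 are read outward from a shared interval of 221 bases, and 52 bases separate BIO4 from BIO5. VHT1 (YGR065C, chrVII:618077-619858, minus strand) encodes the plasma membrane transporter of biotin. The sequences before these genes are shown because BIO3, BIO4, BIO5 and VHT1 were all highest in mub1 without the dye. The capitals mark a short form of the element known to be bound by Vhr1, the factor that controls VHT1 and BIO5 when biotin is low. This form is AATCA, then 8 bases, then TGA. It was searched on both strands of the 300 bases before each start codon of the RefSeq genome, build R64. VHT1 is chrVII:619859-620158 on the minus strand, BIO5 is chrXIV:733304-733603 on the minus strand, and the interval between BIO4 and BIO3 is chrXIV:734070-734290 on the plus strand.
VHT1: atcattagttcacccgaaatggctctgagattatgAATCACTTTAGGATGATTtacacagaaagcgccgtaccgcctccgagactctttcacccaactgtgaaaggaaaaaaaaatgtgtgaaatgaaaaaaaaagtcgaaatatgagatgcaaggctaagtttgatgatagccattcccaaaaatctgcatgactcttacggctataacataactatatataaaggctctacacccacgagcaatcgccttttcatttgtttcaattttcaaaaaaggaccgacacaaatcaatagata
BIO5: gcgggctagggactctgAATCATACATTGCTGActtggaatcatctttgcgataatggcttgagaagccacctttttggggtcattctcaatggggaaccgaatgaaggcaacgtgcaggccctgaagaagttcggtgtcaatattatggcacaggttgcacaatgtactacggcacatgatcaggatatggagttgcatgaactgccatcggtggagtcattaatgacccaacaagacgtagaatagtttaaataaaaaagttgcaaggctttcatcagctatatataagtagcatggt
BIO4-BIO3: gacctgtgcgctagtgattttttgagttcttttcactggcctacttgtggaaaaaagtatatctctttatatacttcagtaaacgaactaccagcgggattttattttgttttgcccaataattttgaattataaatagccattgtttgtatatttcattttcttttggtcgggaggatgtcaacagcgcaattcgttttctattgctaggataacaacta
VHT1 held the element 265 to 250 and 263 to 248 bases before its start, as overlapping matches, and BIO5 held it 283 to 268 bases before its start, within the coding sequence of BIO4. The short form was in 100 of 6001 promoters (1.67%) and in 2 of the 96 lower genes (2.08%). Its letters are not in the interval between BIO4 and BIO3.

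BIO4 had 22.4 and 22.0 CPM in mub1 with Calcofluor white and 104 and 120.0 CPM in mub1 without it, against 18.3 and 23.2 CPM in WT with it and 12.1 and 12.2 CPM in WT without it. BIO4 makes dethiobiotin in the step before biotin. The mub1 libraries without the dye stood far above the other 6, and the mub1 libraries with the dye lay within the range of WT with it. The levels of BIO3 were 23.4 and 23.9 CPM (mub1 with the dye), 108 and 125 CPM (mub1 without), 14.5 and 21.7 CPM (WT with) and 11.2 and 9.94 CPM (WT without). BIO3, the aminotransferase one step earlier, had the same order, except that its mub1 libraries with the dye were above both of WT. The interaction was -3.10 ± 0.17 for BIO4 (log2 ± SE, 2 libraries a group here and below; adjusted p = 3.82e-05) and -3.06 ± 0.23 for BIO3 (adjusted p = 3.27e-04). In linear terms BIO4 fell to 0.194 of its level without the dye in mub1 and rose 1.66-fold in WT.

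VHT1 had 37.5 and 35.8 CPM in mub1 with Calcofluor white and 195 and 192 CPM in mub1 without it, against 21.1 and 24.3 CPM in WT with it and 19.6 and 18.1 CPM in WT without it. The 4 groups of VHT1 did not overlap, and mub1 without the dye was the highest. Its interaction was -2.65 ± 0.12 (adjusted p = 9.52e-06), with a response of -2.43 in mub1 and 0.22 in WT. The levels of BIO5 were 33.3 and 33.7 CPM (mub1 with the dye), 60.3 and 70.5 CPM (mub1 without), 29.4 and 35.2 CPM (WT with) and 20.9 and 20.4 CPM (WT without). BIO5, a transporter of a biotin precursor, was again highest in mub1 without the dye, with overlapping values in the 2 groups that had it; its interaction was -1.60 ± 0.16 (adjusted p = 0.00161). BIO2 had 136 and 138 CPM in mub1 with Calcofluor white and 490.3 and 448 CPM in mub1 without it, against 85.2 and 57.1 CPM in WT with it and 105 and 96.6 CPM in WT without it. BIO2, the biotin synthase (YGR286C, chrVII:1063813-1064940, minus strand), differed from the others in that it also fell in WT, by 0.54, and its interaction was -1.26 ± 0.22 (adjusted p = 0.0253). Without the dye, mub1 exceeded WT by 3.19 (BIO4), 3.45 (BIO3), 3.35 (VHT1), 1.65 (BIO5) and 2.21 (BIO2) on the log2 scale, with libraries that the interaction shares. Leaving out 1 library or changing the other settings kept BIO3, BIO4, BIO5 and VHT1 called, but BIO2 lost its call in 6 of 16 settings, with an interaction of -1.53 to -0.93.

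In the list of 25 biotin and thiamine genes, 6 were lower (the 5 above and THI2) and 1 was higher. Over all genes 1.61% were lower and 0.89% higher. The list's median interaction was -0.25 against -0.0049 over all genes. With 1 library left out 4 to 11 of the 25 were called. THI4, which makes the thiazole part of thiamine, rose in both genotypes. The levels of THI4 were 66.6 and 65.3 CPM (mub1 with the dye), 5.18 and 5.97 CPM (mub1 without), 9.49 and 14.4 CPM (WT with) and 3.84 and 3.42 CPM (WT without). The mub1 libraries with the dye stood above all others, and the interaction was 1.86 ± 0.27 (adjusted p = 0.0154), from an 11.6-fold rise in mub1 and a 3.19-fold rise in WT. THI2, a transcriptional activator of thiamine genes, was lower (-0.88 ± 0.19), with a response of -0.03 in mub1 that did not pass and a rise of 0.86 in WT. THI5, THI7, THI12 and THI20 had interactions of -1.22, -0.68, -0.80 and -0.53 that did not pass, and members of the THI5 family share near-identical sequence.

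**Figure D2:**
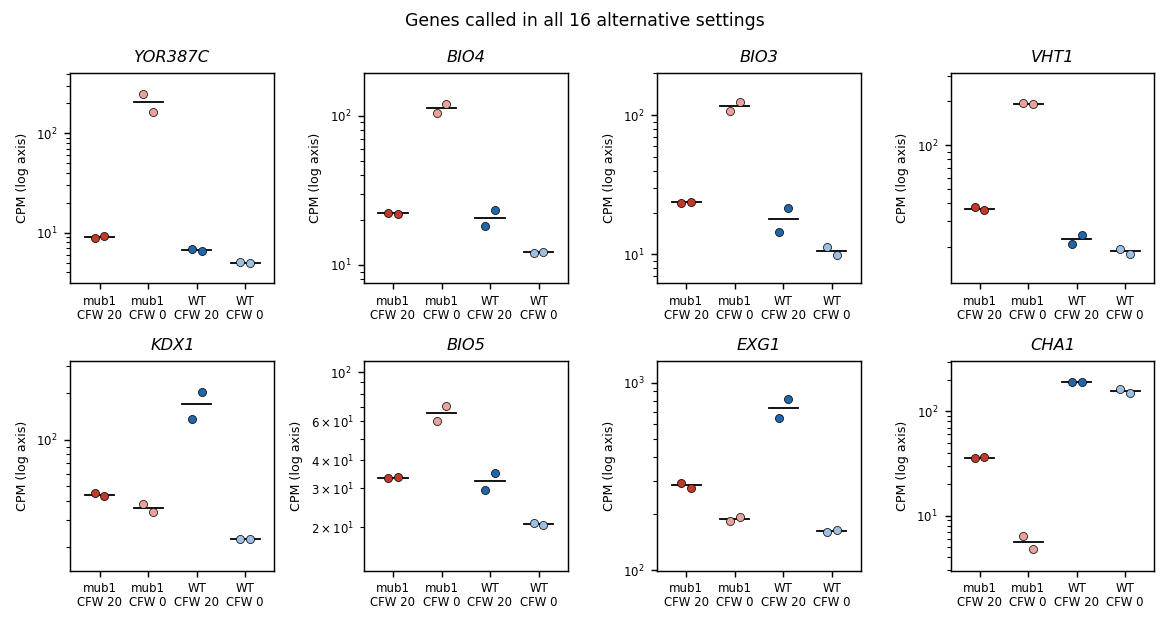
Levels in CPM (log axis) of the 8 genes whose interaction was called in all 16 alternative settings, by group, with 1 point per library and a line at the mean of 2; panels run from the lowest to the highest interaction. YOR387C, BIO4, BIO3, VHT1 and BIO5 are highest in mub1 without Calcofluor white, KDX1 and EXG1 are highest in WT with it, and CHA1 is lowest in mub1 without it.

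YOR387C (chrXV:1069621-1070241, minus strand), a gene of unknown function, had the lowest interaction of all genes called. YOR387C had 8.87 and 9.28 CPM in mub1 with Calcofluor white and 252 and 163 CPM in mub1 without it, against 6.93 and 6.58 CPM in WT with it and 5.03 and 4.97 CPM in WT without it. The mub1 libraries without the dye stood apart from the other 6, which lay between 4.97 and 9.28 CPM. Its interaction was -4.93 ± 0.28 (adjusted p = 4.47e-05), a fall to 0.0431 of the level without the dye in mub1, against a response of 0.39 in WT that did not pass. Its near copy VEL1, which shares 92.6% of aligned bases, had an interaction of -1.30 ± 0.24 (adjusted p = 0.0286), and how reads were divided between the copies is uncertain. The levels of VEL1 were 6.38 and 7.23 CPM (mub1 with the dye), 13.4 and 13.5 CPM (mub1 without), 5.08 and 5.48 CPM (WT with) and 4.53 and 3.82 CPM (WT without). VEL1 is a member of the list of 16 zinc homeostasis genes, in which DPP1 was also lower (-0.44 ± 0.09) and 14 were not called; with 1 library left out 0 to 4 were called. Over all genes 1.61% were lower. The summed level of the 16 was 2033 and 3570 CPM in mub1 with the dye and 9536 and 8309 CPM in mub1 without it. In WT it was 1667 and 1202 CPM with the dye and 1909 and 1817 CPM without it. Thus mub1 without the dye stood above the other 6 libraries. Most of that excess lay in ADH4, a zinc-responsive alcohol dehydrogenase, with 124 and 901 CPM in mub1 with the dye and 5190.0 and 4854 CPM in mub1 without it, against 66.8 and 64.5 CPM in WT with the dye and 104 and 98.0 CPM in WT without it. The interaction of ADH4 was -2.65 ± 1.26 and did not pass (adjusted p = 0.280), and its mub1 libraries with the dye differed widely from each other. ZAP1, the zinc-responsive activator, had an interaction of -0.76 ± 0.27 that did not pass, and the Zap1 element (ACCTT and AAGGT 1 base apart) was in 6 of 6001 promoters (0.1%), in none of the 149 called genes and in 2 of 16 zinc homeostasis promoters (12.5%).

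CHA1 (YCL064C, chrIII:15798-16880, minus strand), the deaminase that lets cells use serine and threonine as nitrogen sources, had the highest interaction. CHA1 had 35.5 and 36.5 CPM in mub1 with Calcofluor white and 6.29 and 4.74 CPM in mub1 without it, against 192 and 189.7 CPM in WT with it and 163 and 149 CPM in WT without it. Both mub1 groups lay below both WT groups, and the mub1 libraries with the dye were above those without it. The interaction was 2.43 ± 0.15 (adjusted p = 4.64e-05), a 6.42-fold rise in mub1 against a WT response of 0.25 that did not pass. HOM3, the first enzyme of threonine and methionine synthesis, was also higher (0.74 ± 0.16, adjusted p = 0.0486). The other 16 of 18 threonine, serine and one-carbon genes were not called, beside 0.89% higher over all genes.

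Genes known as targets of Rlm1 had a lower response in mub1 than in WT for 9 members, and nearly all of them rose in WT. Of 26 tested targets, 10 rose, 1 fell and 15 were not called in mub1, with a median response of 0.27. In WT 25 rose and 1 fell, with a median of 1.15. Over all genes 13.8% rose in mub1 and 10.3% in WT. The interaction was lower for 9 (KDX1, CWP1, GFA1, CRH1, YNL058C, PTP2, DFG5, SLT2 and CHS3) and higher for none, with a list median of -0.84. Among all genes tested 1.61% were lower. Of the 26 interaction values 25 were negative, beside 3013 of all 5954 genes. The exception was SPI1 (0.56 ± 0.20, not called), a wall protein that fell in WT. The count of 9 was 1 to 24 with 1 library left out, 7 under the replicate block and up to 23 under the other settings. The WT libraries with the dye differed from each other here: the summed level of the 26 targets was 32840 and 45580 CPM in them, against 22330 and 21830 CPM in mub1 with the dye, 18550 and 18170 CPM in mub1 without it, and 19160 and 18330 CPM in WT without it.

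**Figure D3:**
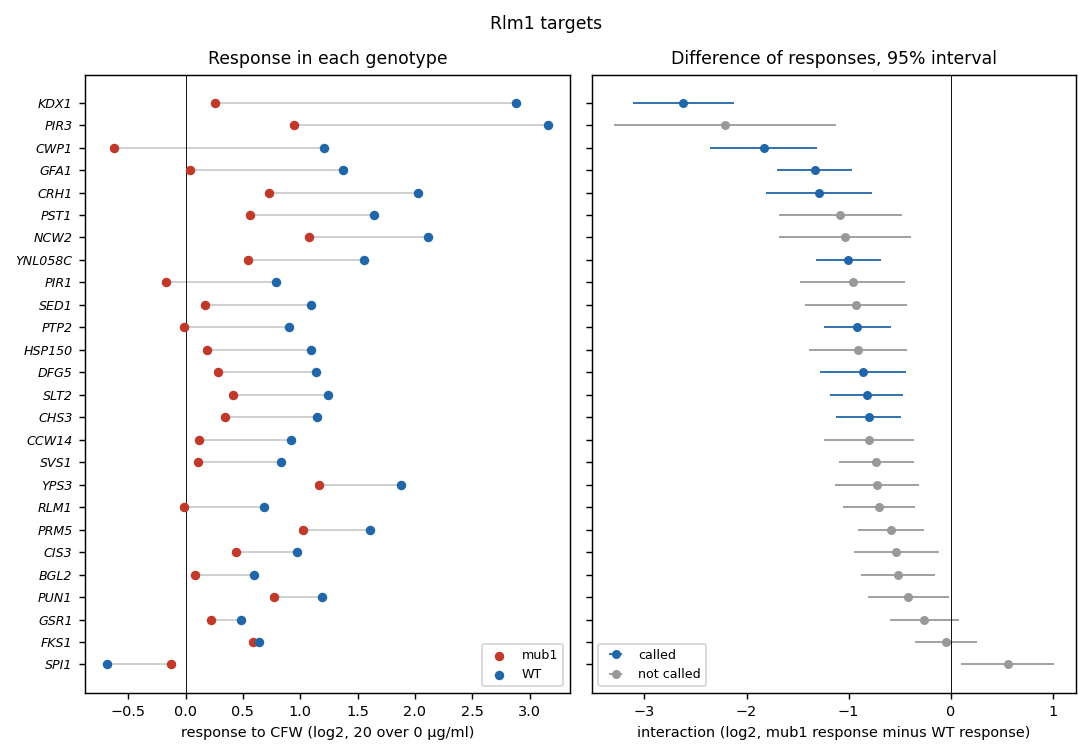
Left, response to Calcofluor white (log2) of the 26 tested Rlm1 targets in mub1 (red) and WT (blue); right, their interaction (mub1 response minus WT response, log2) with 95% intervals, blue where called. The WT point lies right of the mub1 point for 25 of 26 genes, SPI1 being the exception; FKS1 has an interval of -0.35 to 0.25.

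KDX1 (YKL161C, chrXI:149386-150687, minus strand) encodes a kinase-like relative of Slt2 and is a widely used reporter of the pathway. The levels of KDX1 were 45.0 and 42.7 CPM (mub1 with the dye), 38.0 and 33.7 CPM (mub1 without), 137 and 205 CPM (WT with) and 22.4 and 22.5 CPM (WT without). Both WT libraries with the dye were above all others, and mub1 without the dye exceeded WT without it. The interaction was -2.62 ± 0.22 (adjusted p = 6.22e-04), with a response of 0.26 in mub1 that did not pass and a 7.36-fold rise in WT. SLT2 had 264 and 258 CPM in mub1 with Calcofluor white and 184 and 199.6 CPM in mub1 without it, against 494 and 625 CPM in WT with it and 245 and 214 CPM in WT without it. SLT2, the kinase of the pathway, rose in both genotypes, by 0.42 in mub1 and 1.24 in WT, and differed by -0.82 ± 0.16 (adjusted p = 0.0337). PTP2, a phosphatase that acts on kinases of this family, had a response of -0.01 in mub1 that did not pass and rose by 0.90 in WT (interaction -0.92 ± 0.15, adjusted p = 0.0200). RLM1 itself lay just outside the threshold, with -0.70 ± 0.16 and an adjusted p of 0.0501; DFG5 lay just inside, with -0.86 ± 0.19 and 0.0497.

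The promoter of PTP2 is shown as the one among the 9 called targets that holds the Rlm1 consensus (capitals) in the 300 bases before the start, at chrXV:733625-733924 on the plus strand.
PTP2: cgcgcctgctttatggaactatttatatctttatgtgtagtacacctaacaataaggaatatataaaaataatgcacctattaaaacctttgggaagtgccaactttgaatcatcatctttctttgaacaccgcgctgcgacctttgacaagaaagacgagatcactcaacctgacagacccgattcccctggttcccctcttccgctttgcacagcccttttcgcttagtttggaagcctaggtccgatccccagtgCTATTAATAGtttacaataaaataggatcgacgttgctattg
The consensus, searched on both strands, was in 5 of 26 targets (19.2%), in 71 of 6001 promoters (1.18%) and in 4 of the 96 lower genes (4.17%), which were CRG1, PTP2, SBE2 and DSF2. In PTP2 it lay 42 to 33 bases before the start.

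Of 18 genes that make and crosslink chitin, 4 were lower, none was higher and 14 were not called, with a median interaction of -0.22. Over all genes 1.61% were lower. With 1 library left out 0 to 9 of them were called. Among the 4, GFA1, CRH1 and CHS3 are also counted with the Rlm1 targets. GFA1 makes glucosamine 6-phosphate, the first committed step toward chitin. GFA1 had 379 and 344 CPM in mub1 with Calcofluor white and 344 and 344 CPM in mub1 without it, against 557 and 733 CPM in WT with it and 239 and 243 CPM in WT without it. The WT libraries with the dye were the highest, and the mub1 libraries with and without it overlapped. Its interaction was -1.33 ± 0.16 (adjusted p = 0.00721), though it overlaps an antisense gene, YKL104W-A, by 255 bases, and the strand setting of the counting is not given in the sources used here. PCM1, a later step of the same route, differed by -0.65 ± 0.11 (adjusted p = 0.0213). CHS3, the chitin synthase of the lateral wall, rose in both genotypes and differed by -0.81 ± 0.14. The levels of CHS3 were 92.7 and 78.2 CPM (mub1 with the dye), 63.9 and 68.0 CPM (mub1 without), 148 and 176 CPM (WT with) and 69.7 and 72.0 CPM (WT without). CRH1, which joins chitin to glucan, rose 0.73 in mub1 and 2.02 in WT (interaction -1.29 ± 0.23, adjusted p = 0.0268). CHS6 and CHS7, which bring Chs3 to the surface, had -0.69 and -0.65 without passing, while CHS1 and CHS2, the synthases of repair and septum, had 0.16 and -0.02.

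Among 25 beta-glucan genes, EXG1 and SIM1 were lower and none was higher, and 1 to 10 were called with 1 library left out. Over all genes 1.61% were lower. EXG1 (YLR300W, chrXII:728955-730301, plus strand) is the major exoglucanase of the wall. EXG1 had 293 and 276 CPM in mub1 with Calcofluor white and 184 and 193 CPM in mub1 without it, against 647 and 819.5 CPM in WT with it and 159.5 and 165 CPM in WT without it. All 4 groups were separate, and WT with the dye was far above the rest. EXG1 rose 1.48-fold in mub1 and 4.38-fold in WT, an interaction of -1.57 ± 0.15 (adjusted p = 0.00134). FKS1, a catalytic subunit of the glucan synthase, rose by 0.59 in mub1 and 0.64 in WT, with an interaction of -0.05 ± 0.13 and a 95% interval of -0.35 to 0.25. Its stress-induced counterpart GSC2 had -1.09 ± 0.30 but did not pass (adjusted p = 0.0843).

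Of 27 anchored and PIR wall proteins, 1 was lower and 1 was higher, beside 1.61% lower and 0.89% higher over all genes. CWP1, a mannoprotein of the wall, fell in mub1 and rose in WT. The levels of CWP1 were 186 and 145 CPM (mub1 with the dye), 243 and 257 CPM (mub1 without), 521 and 763 CPM (WT with) and 277 and 263 CPM (WT without). The mub1 libraries with the dye were the lowest of the 8 and the WT libraries with it the highest, and the interaction was -1.83 ± 0.23 (adjusted p = 0.00935). TIR3, a mannoprotein of the cold- and hypoxia-induced family, was higher (0.96 ± 0.20, adjusted p = 0.0461) and the other 25 were not called. With 1 library left out 0 to 15 of the 27 were called. PIR3 had -2.21 ± 0.46 with an adjusted p of 0.0570. PIR3 had 589 and 519 CPM in mub1 with Calcofluor white and 278 and 284 CPM in mub1 without it, against 558 and 1305 CPM in WT with it and 108 and 93.9 CPM in WT without it. The second WT library with the dye held more than the first, and the first lay within the range of mub1 with the dye. NCW2 and PST1 had -1.04 ± 0.29 and -1.08 ± 0.27, neither of which passed. Of the 5 yapsins, proteases of the cell surface, YPS6 was lower (-0.96 ± 0.17). In the list of 13 daughter-cell separation genes ASH1, DSE4 and SCW11 were lower (0 to 7 called with 1 library left out), and ASH1, a repressor of mating-type switching, fell in mub1 and rose in WT (interaction -1.35 ± 0.16, adjusted p = 0.00721).

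**Figure D4:**
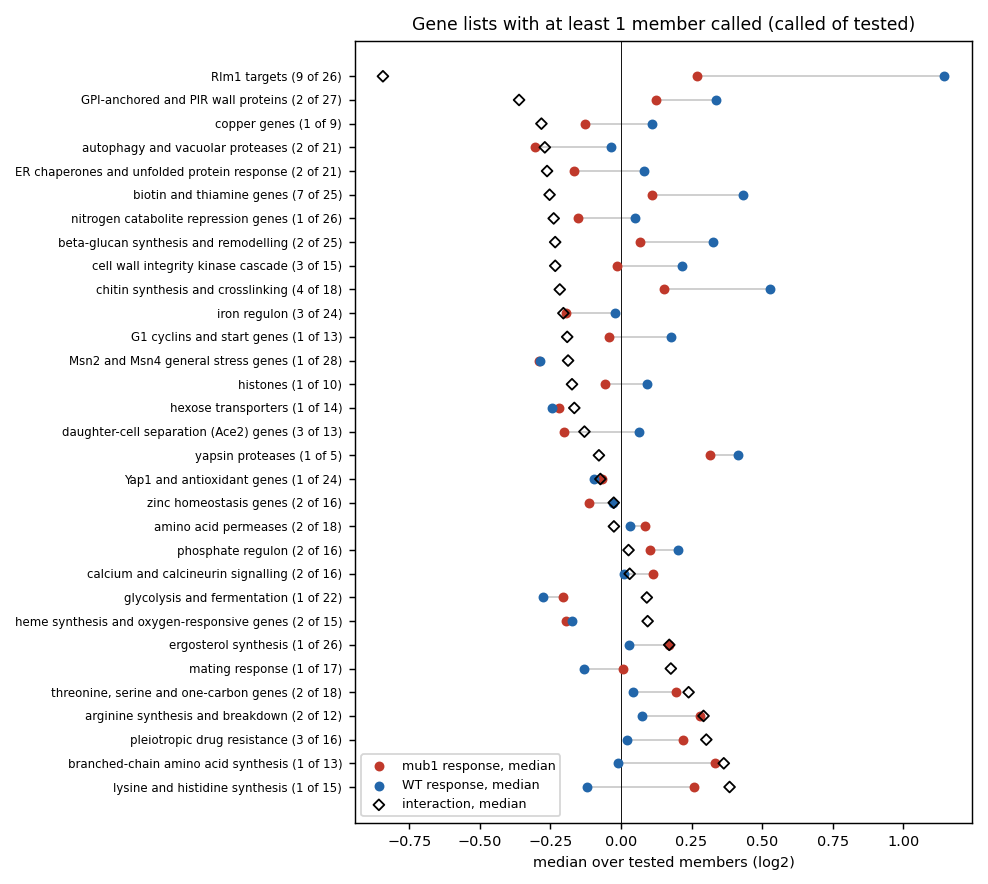
Median response to Calcofluor white over the tested members of each gene list with at least 1 member called, in mub1 (red) and WT (blue), and the median of the members' interaction (open diamonds), all log2; the numbers beside each name are members called and tested. Rlm1 targets have the widest gap, with medians of 0.27 in mub1 and 1.15 in WT.

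Other lower genes were single members or pairs of several lists, beside a background of 1.61% of all genes tested. The levels of PUT4 were 59.8 and 59.8 CPM (mub1 with the dye), 91.2 and 75.7 CPM (mub1 without), 8.78 and 17.6 CPM (WT with) and 2.65 and 3.42 CPM (WT without). PUT4, the proline permease, had a response of -0.51 in mub1 that did not pass and rose 4.20-fold in WT; both mub1 groups were above both WT groups, and the interaction was -2.58 ± 0.38 (adjusted p = 0.0181). PUT4 was 1 of 26 nitrogen catabolite repression genes called. GAP1, the general amino acid permease of that list, stood at -0.72 in mub1 and -0.08 in WT and did not pass (-0.64 ± 0.17). DIP5, the permease for acidic amino acids, fell in mub1 (-0.84) with a WT response of -0.01, an interaction of -0.82 ± 0.10 (adjusted p = 0.00603). The arginine breakdown genes CAR1 and CAR2 were both lower (-0.68 ± 0.14 and -1.53 ± 0.32), but neither was called under the replicate block. In all, 65 of the 149 called genes lost the call under that block. Among them were also SLT2, DFG5, PHO84, CRZ1, HOM3, HXT1, TIR3, ADH1 and PDR5. The list of 12 arginine genes had a median of 0.29, with 9 positive and 3 negative values. The phosphate genes PHO5 and PHO84 were lower too (-1.20 ± 0.24 and -0.63 ± 0.12), and both rose in WT. Their list of 16 had a median of 0.03, with 8 positive and 8 negative values. PHO5 shares 86.6% of aligned bases with PHO3, and PHO84 is overlapped over its whole length by a noncoding gene on the other strand, so these values are uncertain.

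Of 24 iron regulon genes, 3 were lower and none was higher, with a median interaction of -0.20 and 0 to 7 called with 1 library left out. Over all genes 1.61% were lower. TIS11, an RNA-binding protein that degrades transcripts of iron-using proteins, fell in mub1. TIS11 had 17.5 and 16.1 CPM in mub1 with Calcofluor white and 48.0 and 45.8 CPM in mub1 without it, against 19.6 and 29.2 CPM in WT with it and 25.0 and 24.1 CPM in WT without it. The mub1 libraries without the dye were the highest, and the WT groups overlapped. The interaction was -1.46 ± 0.22 (adjusted p = 0.0167). FTR1, the high-affinity iron permease, and FRE1, a reductase of iron and copper, were lower by -1.04 ± 0.17 and -0.64 ± 0.13. The promoter of TIS11 (chrXII:416659-416958, minus strand) is shown as the one of the 3 with more than 1 match to the site of the iron-responsive factor Aft1, TGCACCC or its complement, in capitals.
TIS11: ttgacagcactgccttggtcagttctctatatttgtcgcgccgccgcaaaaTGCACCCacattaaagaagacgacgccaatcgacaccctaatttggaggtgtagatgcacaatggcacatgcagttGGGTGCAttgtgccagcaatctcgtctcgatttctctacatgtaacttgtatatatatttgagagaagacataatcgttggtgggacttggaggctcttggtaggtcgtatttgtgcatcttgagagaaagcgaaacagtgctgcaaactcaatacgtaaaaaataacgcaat
The site was in 13 of 24 iron regulon promoters (54.2%), in 80 of 6001 promoters (1.33%) and in 4 of the 96 lower genes (4.17%), among them FTR1 and THI2. CTR1, the copper transporter, fell in mub1. The levels of CTR1 were 85.4 and 92.4 CPM (mub1 with the dye), 296 and 216 CPM (mub1 without), 31.4 and 30.1 CPM (WT with) and 36.1 and 38.5 CPM (WT without). Its groups in mub1 were above those of WT, and its interaction was -1.23 ± 0.18 (adjusted p = 0.0167). The site of the copper-responsive factor Mac1 (TTTGCTC) was in 6 of the 96 lower genes (6.25%), in 1 of the 53 higher genes (1.89%) and in 317 of 6001 promoters (5.28%). It was in none of the 9 copper genes tested, CTR1 among them, and FRE1 held it at 3 places. The remaining lower genes of large size were YCL048W-A (-2.38 ± 0.42) and AIM33 (-1.76 ± 0.25), of unknown function, YPL088W (-1.77 ± 0.20), a putative aryl alcohol dehydrogenase, CRG1 (-1.63 ± 0.24), a methyltransferase, and YKE4 (-1.59 ± 0.28), a zinc transporter. In mub1 AIM33 alone of these passed, falling by 0.63, and all 5 rose in WT.

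Membrane pumps for drugs and weak acids were among the higher genes, while VMR1, a vacuolar drug transporter, was among the lower (-0.65 ± 0.12). PDR12 exports weak organic acids. PDR12 had 174 and 181 CPM in mub1 with Calcofluor white and 65.1 and 86.2 CPM in mub1 without it, against 56.1 and 50.8 CPM in WT with it and 47.9 and 46.4 CPM in WT without it. The mub1 libraries with the dye were the highest of the 8, and the interaction was 1.06 ± 0.18 (adjusted p = 0.0240). QDR2 and PDR5, other multidrug exporters, were higher by 0.66 ± 0.12 and 0.83 ± 0.17. The levels of PDR5 were 198 and 146 CPM (mub1 with the dye), 127 and 132 CPM (mub1 without), 420.4 and 433 CPM (WT with) and 585 and 543 CPM (WT without). PDR5 rose in mub1 and fell in WT, with all 4 mub1 libraries below all 4 of WT. Of the 16 pleiotropic drug resistance genes these 3 were higher and none was lower, with a median of 0.30 and 0 to 7 called with 1 library left out; the regulators PDR1 and PDR3 had 0.35 ± 0.13 and 0.48 ± 0.15 and did not pass. Over all genes 0.89% were higher. TPO3, a polyamine exporter, rose in both genotypes and was higher by 0.76 ± 0.14, and it shares 90.8% of aligned bases with TPO2. Of 16 genes of calcium signalling, 2 were higher, but the list had 8 positive and 8 negative interaction values and a median of 0.03. The 2 were CMK2, a calmodulin-dependent kinase (0.87 ± 0.17), and CRZ1, the transcription factor that calcineurin activates (0.56 ± 0.11). Both rose in mub1, and CMK2 fell in WT.

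Other higher genes were single members of their lists, beside a background of 0.89% of all genes tested. Higher were 1 of 13 branched-chain amino acid genes (ILV2), 1 of 15 lysine and histidine genes (HIS3), 1 of 22 glycolysis and fermentation genes (ADH1) and 1 of 15 heme and oxygen-responsive genes (HEM13), of which ROX1 was lower (-0.56 ± 0.11). ILV2, the first enzyme of the branched-chain pathway, rose in mub1 and fell in WT. The levels of ILV2 were 651 and 696 CPM (mub1 with the dye), 442 and 462 CPM (mub1 without), 532 and 434 CPM (WT with) and 655 and 603 CPM (WT without). Its interaction was 0.97 ± 0.17 (adjusted p = 0.0227). HIS3, of histidine synthesis, and BAP3, a permease for branched-chain amino acids, were higher by 0.89 ± 0.12 and 0.56 ± 0.09. ADH1 had 8446 and 7255 CPM in mub1 with Calcofluor white and 3405 and 4909 CPM in mub1 without it, against 10820.0 and 10310.0 CPM in WT with it and 12520.0 and 13220.0 CPM in WT without it. ADH1, the main fermentative alcohol dehydrogenase, was lower in both mub1 groups than in both WT groups, and within mub1 it was higher with the dye (interaction 1.21 ± 0.26, adjusted p = 0.0478); it shares 88.8% of aligned bases with ADH2. HXT1, a low-affinity glucose transporter, was higher by 0.97 ± 0.20, rising in mub1 (0.72). CTT1, the cytosolic catalase, and HEM13, an oxygen-dependent enzyme of heme synthesis, rose in mub1 and fell in WT, with interactions of 1.12 ± 0.19 and 1.001 ± 0.18. APE1, a vacuolar aminopeptidase, fell in both genotypes, to 0.648 of its level without the dye in mub1 and to 0.333 in WT (interaction 0.96 ± 0.14, adjusted p = 0.0133). The other higher genes of large size were RMA1 (1.14 ± 0.19), a putative folate enzyme, YJL213W (1.02 ± 0.16), of unknown function, AST1 (1.002 ± 0.20), a protein tied to membrane sorting, and NOP19 (0.94 ± 0.19), a factor of ribosomal RNA processing.

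NOP19 was joined by other factors of ribosome and RNA maturation, picked out after their values were seen: REA1 (0.66 ± 0.13) and BUD20 (0.45 ± 0.10), which act on the large subunit, NOB1 (0.63 ± 0.10), the nuclease that finishes the small subunit RNA, CSL4 (0.63 ± 0.10), an exosome subunit, ACL4 (0.77 ± 0.16), a chaperone of a ribosomal protein, and TRM10 (0.62 ± 0.12), a methyltransferase of transfer RNA. None of the 51 ribosome biogenesis factors or 137 cytosolic ribosomal proteins in the lists was called, though their median interactions were 0.36 and 0.28. At an unadjusted p under 0.05 in edgeR 20 of the factors and 21 of the proteins passed, and DESeq2 called 9 and 9. Of the 51 factors, 26 rose in mub1 and 3 in WT. Of the 137 proteins, 39 rose in mub1 and 2 in WT. Over all genes 13.8% rose in mub1 and 10.3% in WT. The summed level of the 51 factors was 6428 and 5968 CPM in mub1 with the dye and 4888 and 4643 CPM without it, against 6130 and 4381 CPM in WT with the dye and 5481 and 5995 CPM without it. The WT libraries with the dye thus enclosed every other library but the first of mub1 with it. Cytosolic heat shock chaperones had a median of 0.46 and mitochondrial ribosomal proteins one of -0.15, with 0 of 21 and 0 of 43 called by edgeR, 13 and 12 under an unadjusted p of 0.05, and 5 and 2 called by DESeq2.

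The circuit of Mub1 showed no called interaction. RPN4 had a response of 0.21 in mub1 and 0.34 in WT, with an interaction of -0.14 ± 0.16 (adjusted p = 0.626). The levels of RPN4 were 397 and 426 CPM (mub1 with the dye), 379 and 321 CPM (mub1 without), 309 and 384 CPM (WT with) and 268 and 262 CPM (WT without). UBR2 and UBR1, the ubiquitin ligases, and RAD6, their conjugating enzyme, had 0.03 ± 0.10, 0.04 ± 0.09 and 0.05 ± 0.10. Of 19 genes of the 19S and 14 of the 20S proteasome particle none was called, and their median interactions were 0.12 and 0.19. In mub1 0 and 0 of them fell, against 4 and 3 in WT. Over all genes 14% fell in mub1 and 8.7% in WT. In edgeR 3 and 3 had an unadjusted p under 0.05, and DESeq2 called 0 and 0. The interaction was positive for 18 of 19 and 14 of 14 of them, between -0.08 and 0.28 for the 19S and 0.0847 and 0.28 for the 20S genes, and for 2940 of all 5954 genes tested. Of the markers of mating type, none of 7 a-cell genes and none of 4 alpha-cell genes had a called interaction in edgeR or DESeq2 (1 and 0 at an unadjusted p under 0.05). Their levels differed between the genotypes: the summed level of the a-cell genes was 634 to 724 CPM in the 4 mub1 libraries and 1127 to 1683 CPM in the 4 WT libraries, and that of the alpha-cell genes 46.7 to 54.9 CPM in mub1 and 60.7 to 73.0 CPM in WT. Without the dye MF(ALPHA)1, a gene of the alpha pheromone, was higher in mub1 than in WT (1.81 on the log2 scale, adjusted p = 0.00703), at 1.66 and 2.76 CPM in mub1 and 0.538 and 0.716 CPM in WT. These are low levels, of 40 and 74 reads in mub1 and 14 and 18 in WT. The median over the 4 alpha-cell genes went the other way in mub1 without the dye. It was -0.17 and -0.28 (log2 against the mean of WT without the dye). What part these differences have in the interaction was not tested.

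**Figure D5:**
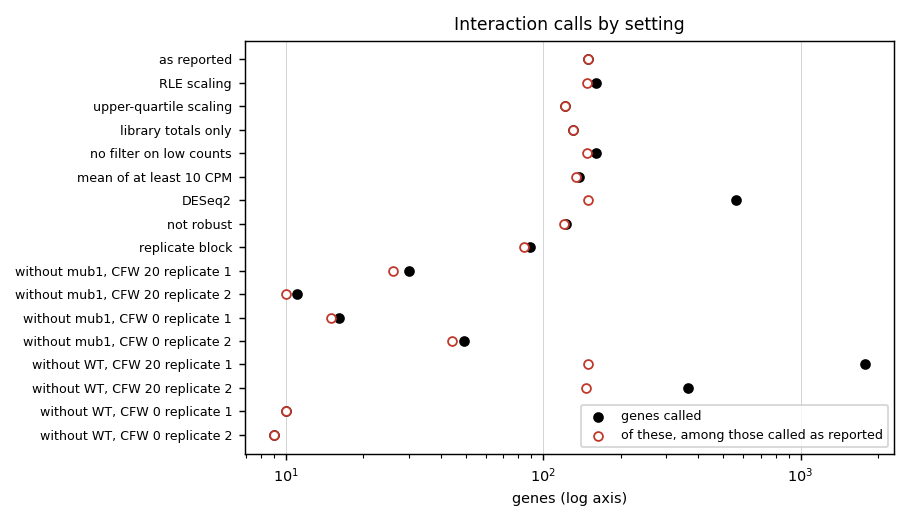
Number of genes with a called interaction (log axis) as reported and in 16 alternative settings (black), and how many of them were among the 149 called as reported (red circles). The count is 121 to 160 under the other scalings and filters in edgeR and 123 without the robust step, 89 under the replicate block, 561 with DESeq2, and 9 to 1779 when 1 library is left out.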

How the data were processed

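RNA was extracted with hot phenol, enriched for polyadenylated transcripts and sequenced in pairs from stranded libraries, per the labels' protocols. The submitters' processing notes name FastQC 0.12.1 for quality checks, HISAT2 2.2.1 for alignment to R64 and featureCounts 2.0.3 for counting. The deposited values are unscaled whole-number counts per gene. The treatment of reads with several alignments is not given in the sources used here.

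Of 6534 identifiers, 5864 matched the RefSeq annotation of R64, from which symbols and coordinates come. All 8 columns matched a library. edgeR 4.0.16 (R 4.3.3) was used with filterByExpr (5954 genes, 99.997% of counts), TMM factors of 0.9793 to 1.024 and the robust quasi-likelihood test on 4 group means (4 residual degrees of freedom), with Benjamini-Hochberg adjustment over all tested genes and a threshold of 0.05. CPM are counts-per-million of a library's total. The procedure was tested on simulated data. Near copies were found with BLAST 2.17.0. A count of 0 allows up to 3 counts, or 0.0947 to 0.124 CPM, which covers counting error only.

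The text names the 14 largest called interactions in each direction with a mean of at least 10 CPM and responses that do not overlap, members of gene lists, and genes of the Mub1 circuit and the wall; other genes were chosen after their values were seen. The comparison and the lists were chosen with earlier results of these data known. Alternatives were RLE, upper-quartile and no scaling, no filter, a mean of at least 10 CPM, DESeq2 1.42.0, no robust step, the replicate number as a block, and leaving out each library.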

Additional observations from a re-analysis of the deposited data

Results flagged for a closer look

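The response to Calcofluor white differed between the genotypes for 149 genes, by the test of the difference itself (edgeR's quasi-likelihood test of the interaction, with adjustment over all genes). Those with the largest differences, as the log2 response of mub1 minus that of WT, were lower for YOR387C (-4.93), BIO4 (-3.10), BIO3 (-3.06), VHT1 (-2.65), KDX1 (-2.62), PUT4 (-2.58), YCL048W-A (-2.38), CWP1 (-1.83), YPL088W (-1.77), AIM33 (-1.76), CRG1 (-1.63), BIO5 (-1.60), YKE4 (-1.59) and EXG1 (-1.57). They were higher for CHA1 (2.43), THI4 (1.86), ADH1 (1.21), RMA1 (1.14), CTT1 (1.12), PDR12 (1.06), YJL213W (1.02), AST1 (1.002), HEM13 (1.001), HXT1 (0.97), ILV2 (0.97), APE1 (0.96), TIR3 (0.96) and NOP19 (0.94). Values of genes with a near copy (YOR387C with VEL1, and ADH1 with ADH2) are uncertain. With 2 libraries a group, no library could be tested as standing apart from its group.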

How the results depend on the processing

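The 149 interaction calls (53 higher, 96 lower, 50 at least 2-fold) were 561 (230 higher, 331 lower, 99 at least 2-fold) with DESeq2. With 1 library left out they were 9 to 1779 (1 to 869 higher, 7 to 910 lower, 9 to 207 at least 2-fold); then a group of 1 is assumed to vary like the others. Scaling, filter and robust settings gave 121 to 160. The 1652 genes called for the mub1 response were 531 to 2541 and the 1134 for the WT response 269 to 1788 with 1 library left out. Of the 149 genes, 8 were called in all 16 settings, 141 lost the call in at least 1, and 0 reversed. Leaving out 1 library could hardly reverse them, as their responses did not overlap between the genotypes.

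Under the replicate block 89 genes were called (31 higher, 58 lower, 40 at least 2-fold), 84 of them among the 149. Libraries of the same number deviated together by -0.161 to 0.168 (correlation over genes) in pairs of groups, so the numbers are not taken to pair them.

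Of the 16 named genes that were not called and were followed through the settings, the interaction changed sign for HSF1 under upper-quartile scaling (0.0305) and, with 1 library left out, for HSF1 (-0.1383 to 0.1337), FKS1 (-0.1138 to 0.0138), RAD6 (-0.0115 to 0.0985), RPN4 (-0.2809 to 0.0136), UBR1 (-0.0104 to 0.077) and UBR2 (-0.0068 to 0.0542). The cause of these changes was not tested. The median standard error of an interaction was 0.14, beside 0.0499 from counting error alone.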
